A study of Arabidopsis thaliana with 16 samples.

Results

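The genes of indole glucosinolate and camalexin synthesis were followed through 16 RNA libraries of Arabidopsis thaliana hypocotyls, the embryonic stems of seedlings. They are 10 genes picked by locus code from a count table of 33296 named genes: CYP79B2, CYP79B3, CYP83B1, MYB34, MYB51, MYB122, CYP81F2, CYP71A12, CYP71A13 and PAD3. Of these, 9 passed the filter on low counts and were among the 20505 genes tested. CYP71A13, with 18 counts in all libraries together, did not pass.

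The study asked how the brassinosteroid receptor kinase BRL3, which acts mainly in vascular tissue, bears on the transcriptome of hypocotyls at elevated temperature. Seedlings were raised on plates for 6 days at 22 °C or at 28 °C in long days of 16 h light and 8 h dark. Messenger RNA was then sequenced from 4 genotypes, with 2 libraries for each genotype and temperature. Col-0 is the wild type. The mutant brl3-2 carries the T-DNA insertion SALK_006024C in BRL3. The line pSUC2:BRL3-GFP in brl3-2, called pSUC2-BRL3 from here on, carries the same mutation plus a BRL3-GFP transgene driven by the SUC2 promoter, which is active in phloem companion cells. BRL3ox expresses BRL3-GFP from the general 35S promoter, and the background it was made in is not stated in its labels. Replicates are termed biological in the labels, which do not say whether plates or harvests were separate. All p-values therefore measure only the spread between the libraries at hand. In whole hypocotyls, fewer cells of a type and less RNA per cell cannot be told apart.

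Indole glucosinolates are sulfur-rich defence compounds that cabbage relatives make from tryptophan, and myrosinase enzymes break them into toxic products when a cell is attacked. Tryptophan is first turned into indole acetaldoxime, from which CYP83B1 leads into glucosinolates, while CYP71A12 and CYP71A13 lead into camalexin, an antifungal phytoalexin, and into related indole compounds. The same aldoxime can also feed auxin, the hormone that drives hypocotyl elongation in warmth, so the pathway lies between defence and growth.

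CYP79B2 and CYP79B3 are the 2 enzymes of the entry step, and neither was called in any of the 16 comparisons described here. Their coding sequences share 80.8% of 1694 aligned bases. The 250 bases before each annotated start are shown because they hold an identical run of 22 bases, set in capitals, which begins 77 bases before the start of CYP79B2 and 151 bases before that of CYP79B3. Of 27443 protein-coding promoters of this length, 2 hold the run, these 2, and the nuclear genome holds it at 2 places. Sequences and positions are from RefSeq TAIR10.1, and both stretches are from the plus strand, CYP79B2 at chr4:18524792-18525041 and CYP79B3 at chr2:9488163-9488412.
CYP79B2: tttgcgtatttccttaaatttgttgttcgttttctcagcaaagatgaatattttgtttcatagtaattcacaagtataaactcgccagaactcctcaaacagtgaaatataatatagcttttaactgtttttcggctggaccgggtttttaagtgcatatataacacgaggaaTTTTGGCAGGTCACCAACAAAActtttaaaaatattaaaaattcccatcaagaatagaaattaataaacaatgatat
CYP79B3: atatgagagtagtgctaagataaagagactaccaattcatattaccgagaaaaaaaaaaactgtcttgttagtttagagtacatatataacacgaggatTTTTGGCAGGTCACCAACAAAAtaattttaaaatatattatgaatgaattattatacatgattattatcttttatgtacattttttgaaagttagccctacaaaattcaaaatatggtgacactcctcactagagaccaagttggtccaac

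MYB51 and CYP81F2 are shown next as the only genes of the 10 with a match to the elements named below. Both stood highest in the warm brl3-2 libraries, as did CYP83B1 and CYP79B2, which had no match. The 250 bases before MYB51, on the plus strand at chr1:6389149-6389398, hold 1 copy of CACATG, a binding element of PIF transcription factors, read here on the other strand as CATGTG. It begins 98 bases before the start, and 11.1% of the 27443 promoters hold such a copy on either strand. The 250 bases before CYP81F2, on the plus strand at chr5:23187590-23187839, hold 2 W-boxes, the element bound by WRKY factors, searched as TTGACC or TTGACT on both strands. Both lie on the other strand, beginning 194 and 109 bases before the start, and 28.4% of promoters hold at least 1. CYP81F2 was the only one of the 10 genes with a W-box in this window, MYB51 the only one with CACATG, and none held the G-box CACGTG, which 6.49% of promoters hold. The matches are in capitals and do not overlap.
MYB51: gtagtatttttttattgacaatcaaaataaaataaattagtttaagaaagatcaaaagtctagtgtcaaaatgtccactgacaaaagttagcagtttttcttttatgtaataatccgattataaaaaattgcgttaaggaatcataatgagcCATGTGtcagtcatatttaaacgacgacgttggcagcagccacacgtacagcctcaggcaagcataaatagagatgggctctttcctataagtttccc
CYP81F2: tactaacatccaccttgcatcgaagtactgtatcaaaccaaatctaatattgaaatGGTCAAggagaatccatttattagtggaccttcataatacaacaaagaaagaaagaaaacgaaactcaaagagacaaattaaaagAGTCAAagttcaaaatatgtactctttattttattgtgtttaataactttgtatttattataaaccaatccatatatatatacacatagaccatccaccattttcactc

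CYP71A12 and CYP71A13 are neighbours on the minus strand of chromosome 2, 8537 bases apart with 1 annotated gene between them, and 90.4% of their 1494 coding bases are identical. Their first 150 coding bases are shown, CYP71A12 at chr2:13101222-13101371 and CYP71A13 at chr2:13111839-13111988, with the 17 bases that differ in capitals, since reads must be told apart by such differences. Of the 1298 stretches of 50 bases within exons, 39 of CYP71A12 and 10 of CYP71A13 also occur elsewhere in the genome, and 0 of the other 8 genes. How the authors counted reads with several matches, and whether the strand was used, is not given in the sources used here; CYP71A13 also overlaps AT2G30766 on the opposite strand over 572 bases, so its few counts are uncertain.
CYP71A12: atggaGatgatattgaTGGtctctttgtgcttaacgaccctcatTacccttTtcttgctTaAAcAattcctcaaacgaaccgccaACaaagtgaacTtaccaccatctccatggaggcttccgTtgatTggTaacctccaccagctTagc
CYP71A13: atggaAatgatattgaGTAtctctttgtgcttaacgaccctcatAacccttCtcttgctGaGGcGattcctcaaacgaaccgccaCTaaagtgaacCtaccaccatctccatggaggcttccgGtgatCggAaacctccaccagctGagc

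The libraries held 19013878 to 22791228 counts at 22 °C and 23021365 to 26563600 at 28 °C. Levels are given as CPM, normalised read counts after TMM scaling of the library sizes, in the order replicate 1 and replicate 2, and every group has n = 2. The cool and warm libraries fell on opposite sides of the first principal component (53.7% of variance), and replicate 2 of BRL3ox at 22 °C stood apart on the second (15.1%). Replicates differed by 2-fold or more in 4523 genes for BRL3ox at 22 °C, in 1576 for pSUC2-BRL3 at 28 °C, and in 623 to 1158 for the other 6 groups. That BRL3ox library was left out as an alternative, once with replicate 1 of pSUC2-BRL3 at 28 °C (the first pair) and once with its replicate 2 (the second pair). On the first component replicate 2 of warm pSUC2-BRL3 lay at 43.1, and all the other warm libraries, its replicate 1 at 77.9 included, lay at 56.5 to 84.7. BRL3 itself was at 19.5 and 10.5 CPM in Col-0 at 22 °C and at 22.9 and 28.8 CPM at 28 °C. In brl3-2 it was at 0.531 to 1.04 CPM over both temperatures, lower than in Col-0 by a log2 change of -4.49 at 22 °C (SE 0.40, adjusted p = 0.0035) and of -4.85 at 28 °C (SE 0.37, adjusted p = 0.000686). In pSUC2-BRL3 it stood at 66.2 and 38.6 CPM at 22 °C and at 171 and 178 CPM at 28 °C. BRL3ox had 715 and 817 CPM, then 2185 and 2477 CPM. BRL3 itself thus rose with warmth in pSUC2-BRL3 (edgeR, log2 1.74, SE 0.30, adjusted p = 0.00121) and in BRL3ox (1.61, SE 0.30, adjusted p = 0.00181). The changes in Col-0 (0.78, adjusted p = 0.0533) and brl3-2 (0.42, adjusted p = 0.478) did not pass. The part of these rises in the warmth responses of the transgenic lines was not tested. BRL3 levels thus followed the genotype labels in all 16 libraries.

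Per kilobase of exon, the median level over the 16 libraries was highest for CYP83B1 at 31.7 RPKM, followed by CYP79B3 at 21.8, MYB34 at 15.5, MYB51 at 13.1, CYP79B2 at 6.74 and CYP81F2 at 4.05 RPKM. The mean of MYB51, 20.5 RPKM, lay above that of MYB34, 14.8 RPKM, with MYB51 at 63.6 and 93.1 RPKM in the warm brl3-2 libraries. The camalexin branch was low: CYP71A12 had a median of 0.355 RPKM, PAD3 of 0.242 and CYP71A13 of 0. MYB122 was also low, at 0.352 RPKM. The plot of all 10 genes by library gives each value.

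**Figure D1:**
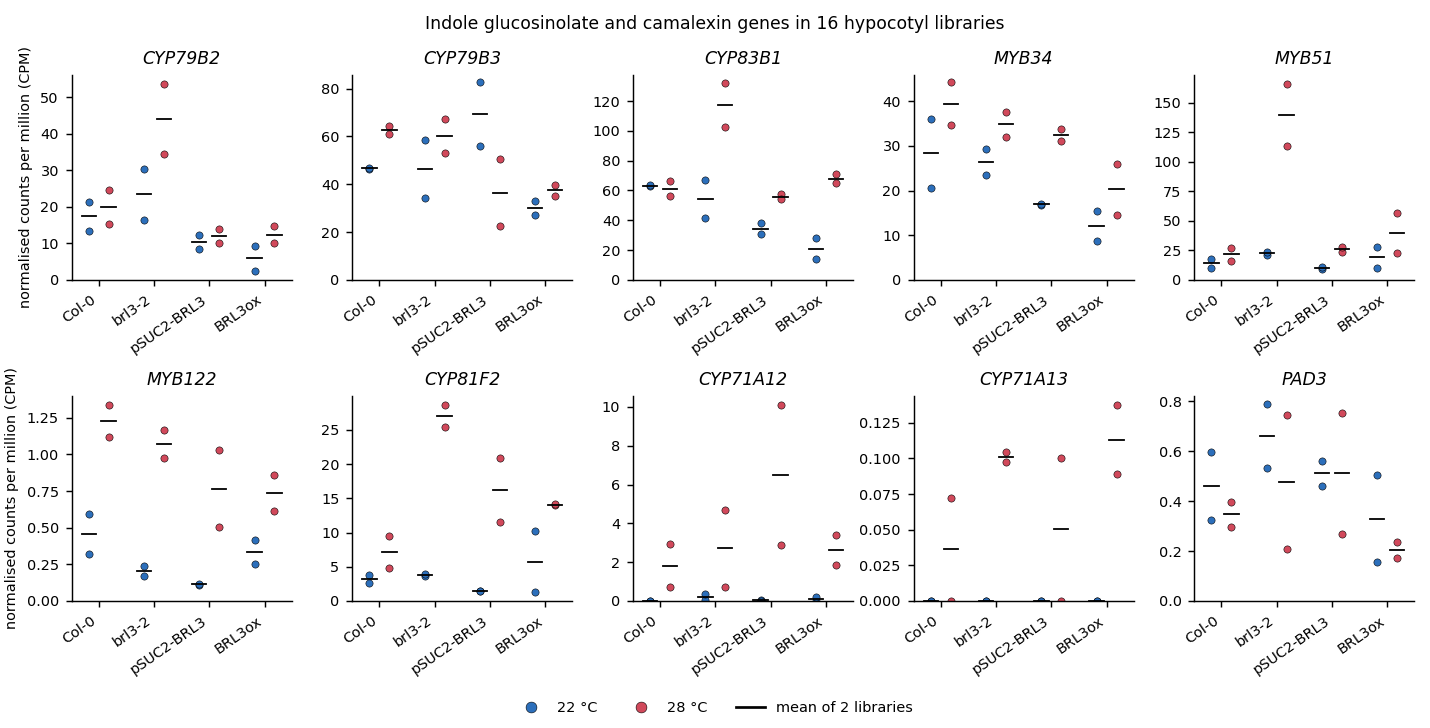
Normalised read counts (CPM) of the 10 genes (y axis, linear, own scale per gene) in each of the 16 libraries, by genotype (x axis) and temperature (blue 22 °C, red 28 °C), with the mean of the 2 libraries as a bar. MYB51, CYP83B1, CYP81F2 and CYP79B2 are highest in both brl3-2 libraries at 28 °C, and CYP71A12 is at 0.722 CPM or more in the 8 warm libraries and at 0.339 CPM or less in the 8 cool ones.

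Averaged over the 4 genotypes, warmth raised 6 of the 9 tested genes and lowered 0 (edgeR quasi-likelihood test, adjusted p below 0.05). CYP71A12, CYP81F2, MYB122, MYB51, CYP83B1 and MYB34 rose, while CYP79B2, CYP79B3 and PAD3 did not pass. Warmth moved most of the transcriptome: 69.3% of all tested genes were called in this comparison, 35.9% higher and 33.5% lower. A call was thus about as common among the 9 genes, at 66.7%, as in the table, and all 6 calls were upward. Their median log2 change was 0.87 and that over all tested genes 0.03. Each of these 6 calls held when any 1 library was left out. Scaling by total counts, an alternative chosen after seeing the data, moved the median of all genes to 0.60 in this comparison, and changes are given relative to the TMM median of 0.03.

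By genotype, warmth raised 2 of 9 in Col-0, against 21.7% of all tested genes raised and 23.3% lowered. In brl3-2 it raised 5, against 25.8% and 23.3% over the table. In pSUC2-BRL3 it raised 4, against 19.6% and 19.5%. BRL3ox had 2 raised, against 18.3% and 19.3%, and 4 raised with the first or the second pair of libraries left out. None of the 9 was called lower in any genotype. The shares of 22.2% in Col-0 and in BRL3ox are close to those of the table, and the 55.6% in brl3-2 and 44.4% in pSUC2-BRL3 are about 2 times the table's share of raised genes.

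**Figure D2:**
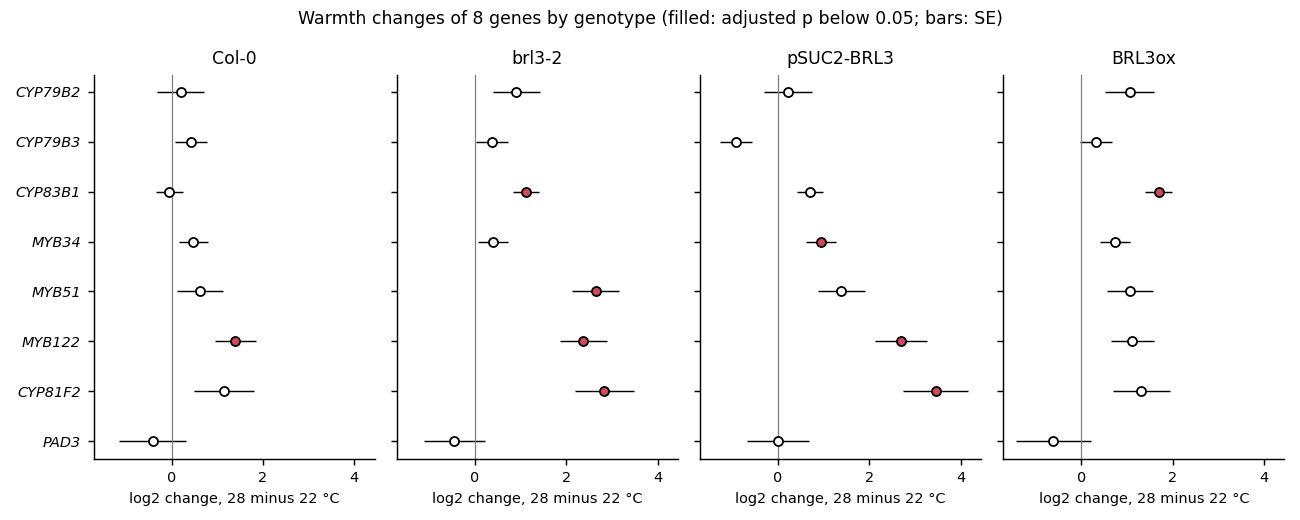
Fitted log2 change from 22 °C to 28 °C (x axis) with its standard error for 8 of the 9 tested genes (y axis) in each genotype (panels); filled points passed an adjusted p of 0.05. CYP71A12 is left out because 4 of its cool libraries have counts of 0, and its fitted changes would stretch the axis. MYB51, CYP81F2 and MYB122 are far to the right in brl3-2 (2.64, 2.84 and 2.38), as are CYP81F2 and MYB122 in pSUC2-BRL3 (3.45 and 2.69). CYP79B3 in pSUC2-BRL3 lies to the left at -0.93 without passing.

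The regulators come first. MYB34, MYB51 and MYB122 are related MYB transcription factors that switch on the indole glucosinolate enzymes. MYB51 (AT1G18570) lies at chr1:6389399-6391386 on the plus strand. In the wild type it was at 18 and 10.1 CPM at 22 °C and at 16.0 and 27.3 CPM at 28 °C, groups that overlap (log2 0.62, SE 0.50, adjusted p = 0.336). In brl3-2 it went from 20.8 and 24.0 CPM to 113.5 and 166.1 CPM, the 2 highest values of the series. The line pSUC2-BRL3 had 9.23 and 10.5 CPM in the cool and 23.7 and 27.9 CPM in the warm. Its groups do not overlap, and the change missed the threshold (log2 1.38, SE 0.51, adjusted p = 0.051), which DESeq2 passed (adjusted p = 0.0186). BRL3ox gave 10.1 and 28.2 CPM at 22 °C and 23.0 and 57.1 CPM at 28 °C, with overlapping groups.

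MYB51 rose with warmth in brl3-2 by a log2 change of 2.64 (SE 0.52, adjusted p = 0.00155). At 28 °C it was higher in brl3-2 than in Col-0 by 2.69 (SE 0.52, adjusted p = 0.0183), 6.46-fold, with no overlap. It was the only called gene of the 9 in that comparison, in which 3.62% of all genes were called. Leaving out a warm library ended that call in 3 cases: Col-0 replicate 1 (log2 2.36, adjusted p = 0.231), Col-0 replicate 2 (3.12, adjusted p = 0.080) and brl3-2 replicate 2 (2.37, adjusted p = 0.174). Leaving out the first or the second pair gave 3 called genes. In the phloem line at 28 °C MYB51 was lower than in brl3-2 by a log2 change of -2.44 (SE 0.51, adjusted p = 0.042), again the only call of the 9, against 1.61% of the table, and 3 or 4 were called without the first or second pair. That call was lost in 10 of the 16 refits with 1 library left out: those without any 1 library of brl3-2 or of pSUC2-BRL3 at either temperature, or without either of Col-0 at 28 °C, with log2 changes from -2.69 to -2.12 over all refits. The difference between the warmth responses of brl3-2 and Col-0 was 2.02 (SE 0.71, adjusted p = 0.182) and did not pass. Without the first pair it was 2.02 with an adjusted p of 0.0472, and without the second the adjusted p was 0.0484.

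MYB34 (AT5G60890, chr5:24494291-24496371, plus strand), also named ATR1, is the second regulator. It was at 36.0 and 20.6 CPM in Col-0 at 22 °C and at 34.7 and 44.2 CPM at 28 °C, groups that overlap. In brl3-2 it had 23.5 and 29.2 CPM and then 32.1 and 37.6 CPM. The warm levels of MYB34 in the mutant and the wild type thus overlapped, while those of MYB51 did not. The phloem line went from 16.7 and 17.1 CPM to 31.0 and 33.8 CPM, a called rise (log2 0.94, SE 0.33, adjusted p = 0.0397). That call was lost without any 1 library of pSUC2-BRL3, without either library of brl3-2 at 22 °C and without replicate 1 of brl3-2 at 28 °C, with log2 changes of 0.89 to 1.00. BRL3ox had the lowest group mean at each temperature, with 15.5 and 8.80 CPM at 22 °C and 14.6 and 25.9 CPM at 28 °C. Averaged over genotypes MYB34 rose with warmth by 0.64 (SE 0.16, adjusted p = 0.00425).

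MYB122 (AT1G74080, chr1:27855578-27857598, plus strand) is the rarest of the regulators, with 2 to 37 counts a library. Its 8 libraries at 22 °C ran from 0.112 to 0.597 CPM and the 8 at 28 °C from 0.502 to 1.34 CPM. Within every genotype both warm libraries were above both cool ones. The rise over all genotypes was 1.90 (SE 0.25, adjusted p = 4.07e-05). The Col-0 rise was 1.39 (SE 0.45, adjusted p = 0.0247), that of brl3-2 2.38 (adjusted p = 0.00263) and that of pSUC2-BRL3 2.69 (adjusted p = 0.004). The BRL3ox change, 1.12, did not pass (adjusted p = 0.083). The Col-0 call depended on 3 libraries, with changes of 1.04 without the second cool replicate and of 1.53 or 1.26 without the first or second warm one.

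The ratio of MYB51 to MYB34 in RPKM was taken within each library. In Col-0 the ratio was 0.499 and 0.487 at 22 °C and 0.460 and 0.615 at 28 °C. The mutant had 0.881 and 0.816 in the cool and 3.53 and 4.40 in the warm. The phloem line had 0.549 and 0.614, then 0.759 and 0.822. In BRL3ox the cool replicates were 0.651 and 3.19 and the warm ones 1.57 and 2.19. MYB51 thus exceeded MYB34 in both warm brl3-2 libraries, both warm BRL3ox libraries and replicate 2 of cool BRL3ox, and in no other library.

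CYP79B2 (AT4G39950, chr4:18525042-18527602, plus strand) and CYP79B3 (AT2G22330, chr2:9488413-9491404, plus strand) convert tryptophan into indole acetaldoxime. CYP79B2 was at 21.4 and 13.3 CPM in Col-0 at 22 °C and at 15.4 and 24.5 CPM at 28 °C. Its brl3-2 libraries had 16.5 and 30.5 CPM, then 34.5 and 53.7 CPM. Both warm brl3-2 libraries lay above the other 14. The phloem line had 12.3 and 8.5 CPM, then 10.2 and 14.1 CPM, and BRL3ox 9.39 and 2.33 CPM, then 10.1 and 14.7 CPM. Averaged over genotypes the warmth change of CYP79B2 was 0.60 (SE 0.26, adjusted p = 0.0589), short of the threshold. It passed by DESeq2 (adjusted p = 0.0409), without replicate 2 of brl3-2 at 22 °C (0.73) or without replicate 1 of BRL3ox at 22 °C (0.94, adjusted p = 0.00267). At 28 °C the change from Col-0 to brl3-2 was 1.15 (SE 0.51, adjusted p = 0.277).

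CYP79B3 was at 46.5 and 47.0 CPM in Col-0 at 22 °C and at 64.3 and 60.9 CPM at 28 °C. In brl3-2 the values were 34.2 and 58.7 CPM, then 52.9 and 67.3 CPM. Neither change passed. The phloem line had the highest group mean, from 82.9 and 55.8 CPM at 22 °C, and 22.3 and 50.6 CPM at 28 °C, with a warmth change of -0.93 (SE 0.34, adjusted p = 0.0517). Without replicate 2 of pSUC2-BRL3 at 28 °C that change was -1.62 and passed (adjusted p = 0.00496), and DESeq2 gave -0.93 (adjusted p = 0.0286). BRL3ox had 27.2 and 32.8 CPM, then 35.2 and 39.6 CPM. Over all genotypes the warmth change of CYP79B3 was 0.05 (SE 0.17, adjusted p = 0.82).

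The ratio of CYP79B2 to CYP79B3 in RPKM was 0.684 and 0.836 in warm brl3-2 and 0.504 and 0.545 in cool brl3-2, and no library of another genotype exceeded 0.483. It was lowest in replicate 2 of BRL3ox at 22 °C, at 0.0743, against 0.362 in replicate 1. In pSUC2-BRL3 at 22 °C it was 0.155 and 0.160. CYP79B3 was thus the more abundant of the pair in every library.

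**Figure D3:**
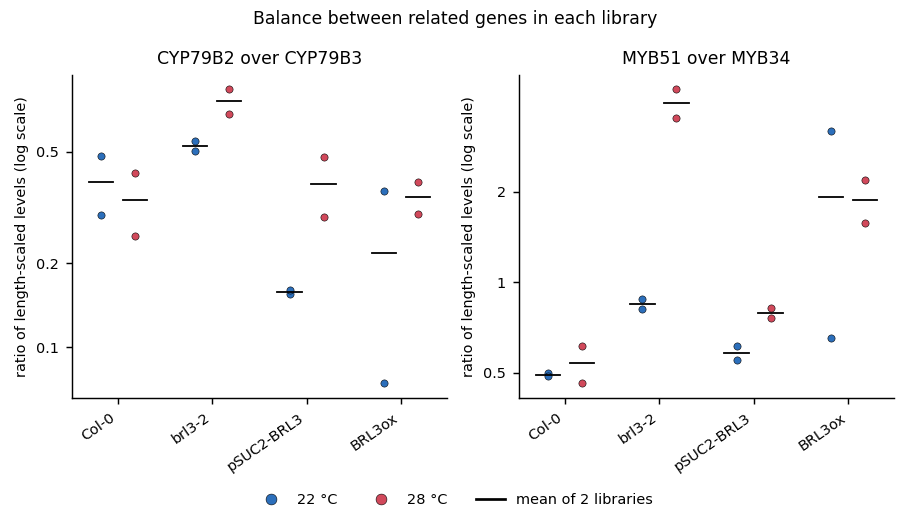
Ratio of RPKM values (y axis, log scale) of CYP79B2 to CYP79B3 (left) and of MYB51 to MYB34 (right) in each library, by genotype and temperature, with the mean of the 2 libraries as a bar. Both ratios are highest in the warm brl3-2 libraries, and the cool BRL3ox replicates lie far apart in both.

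CYP83B1 (AT4G31500, chr4:15273410-15275404, minus strand) oxidises indole acetaldoxime and so commits it to glucosinolates, and mutants of the gene, also called SUR2, overproduce auxin. In Col-0 it was at 62.9 and 63.5 CPM at 22 °C and 56.0 and 66.2 CPM at 28 °C (log2 -0.049, SE 0.29, adjusted p = 0.903), a change whose sign turned under total-count scaling (0.48) and without replicate 1 at 28 °C (0.072). In brl3-2 CYP83B1 went from 41.3 and 66.8 CPM to 103 and 132 CPM, a rise of 1.12 (SE 0.29, adjusted p = 0.00781), a call that ended without the first cool replicate (0.81) or the second warm one (0.92). The phloem line went from 38.1 and 30.7 CPM to 57.4 and 54.4 CPM, without overlap and short of the threshold (log2 0.70, SE 0.29, adjusted p = 0.0738). BRL3ox had the lowest cool levels, 27.9 and 14.0 CPM, and 64.9 and 71.1 CPM in the warm. The rise in BRL3ox was 1.70 (SE 0.30, adjusted p = 0.00129), and from 1.29 to 2.28 with 1 library left out, called in each refit.

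At 22 °C CYP83B1 was lower in BRL3ox than in Col-0 by a log2 change of -1.59 (SE 0.30, adjusted p = 0.00546), and no setting with 1 library left out ended that call (-2.17 to -1.18). MYB34 was also lower, by -1.22 (SE 0.33, adjusted p = 0.0208), a call lost without replicate 1 of Col-0 at 22 °C (-0.76, adjusted p = 0.181) or replicate 2 of BRL3ox at 22 °C (-0.87, adjusted p = 0.141). CYP79B2 changed by -1.55 in the same comparison (SE 0.55, adjusted p = 0.0512) and passed without replicate 1 of BRL3ox at 22 °C (-2.90, adjusted p = 0.00228). So 2 of 9 genes were lower and 0 higher, against 14.7% of all tested genes lower and 15.6% higher (30.2% in all), and without the first or the second pair 1 was called. At 28 °C 0 of the 9 were called between BRL3ox and Col-0 by edgeR or DESeq2, against 2.07% of the table. At an unadjusted p below 0.05 there was 1, and without the first or the second pair 2 were called. The warmth response of CYP83B1 in BRL3ox exceeded that in Col-0 by 1.75 (SE 0.41, adjusted p = 0.0491), the only call of the 9, against 2.58% of the table. It was lost in 15 of the 16 refits with 1 library left out, with adjusted p from 0.0504 to 0.197 in those 15 and log2 values from 1.33 to 2.33 over the 16.

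CYP81F2 (AT5G57220, chr5:23187840-23189902, plus strand) hydroxylates the indole ring of the glucosinolate and is needed for the antifungal defence in which PEN2 breaks these compounds down. In Col-0 it had 3.82 and 2.59 CPM at 22 °C and 4.86 and 9.45 CPM at 28 °C, without overlap but short of the threshold (log2 1.15, SE 0.66, adjusted p = 0.174). In brl3-2 it went from 3.6 and 3.96 CPM to 25.4 and 28.6 CPM. The phloem line went from 1.51 and 1.45 CPM to 20.9 and 11.6 CPM. The warm levels of these 2 lines do not overlap with each other, and both rises were called, at 2.84 (SE 0.65, adjusted p = 0.00416) and 3.45 (SE 0.71, adjusted p = 0.00328). The Col-0 change passed without either BRL3ox library at 22 °C (1.15, adjusted p = 0.0163 and 0.0162), which enter the common estimate of spread.

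In BRL3ox the CYP81F2 values were 1.30 and 10.2 CPM at 22 °C and 14.0 and 14.2 CPM at 28 °C, so the cool replicates lay far apart. The fitted rise was 1.32 (SE 0.62, adjusted p = 0.117) with both cool replicates and 3.44 (adjusted p = 0.000386) without replicate 2. MYB51 in BRL3ox moved in the same way, from 1.07 (adjusted p = 0.111) to 1.99 (adjusted p = 0.0134). The change of CYP81F2 from Col-0 to brl3-2 at 28 °C was 1.92 (SE 0.61, adjusted p = 0.119), and 1.92 with an adjusted p of 0.00121 without the first or the second pair. The difference between the warmth responses of pSUC2-BRL3 and Col-0 was 2.30 (SE 0.97, adjusted p = 0.225), 1.81 without the first pair (adjusted p = 0.0296) and 2.67 without the second (adjusted p = 0.00528).

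CYP71A12 (AT2G30750, chr2:13099486-13101371, minus strand), which turns indole acetaldoxime into a nitrile on the way to camalexin and cyanogenic indole compounds, was almost silent in the cool. At 22 °C Col-0 had 0 and 0 counts, brl3-2 had 1 and 6, pSUC2-BRL3 had 1 and 0, and BRL3ox had 0 and 3. At 28 °C they were 22 and 81, 145 and 21, 294 and 87, and 99 and 62 in the same order of genotypes. Every warm library was thus above every cool one. The level was at least 19-fold higher in warm than in cool Col-0, taking 3 counts over the group as the floor. Over summed counts the ratio was 227 in pSUC2-BRL3 (95% exact counting interval 40.5 to 8990) and 30.1 in BRL3ox (10.1 to 147), intervals that cover counting error only. In brl3-2 the rise was 3.72 (SE 1.29, adjusted p = 0.0349), and 1.84 without replicate 1 at 28 °C or 5.41 without replicate 2 at 22 °C.

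Those calls rest on few libraries. The warm replicates of brl3-2 differed from 4.70 to 0.733 CPM and those of pSUC2-BRL3 from 10.1 to 2.91 CPM. The adjusted p was 0.0225 in Col-0, 0.00543 in pSUC2-BRL3 and 0.0281 in BRL3ox. The call was lost in Col-0 without either cool replicate or without replicate 2 at 28 °C (adjusted p = 0.0839 to 0.102), and in brl3-2 without either cool replicate or replicate 1 at 28 °C (0.0834 to 0.325). In pSUC2-BRL3 it ended without the second cool replicate (0.0517), and in BRL3ox without the first cool (0.116) or first warm one (0.0945). Each other line against Col-0, and pSUC2-BRL3 against brl3-2, gave no call for CYP71A12 at either temperature, and the 4 warm groups overlap with their neighbours in order of level.

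CYP71A13 (AT2G30770, chr2:13109909-13111988, minus strand), the partner enzyme with the same role, had 0 counts in all 8 cool libraries and 0 to 4 in the warm ones, 18 counts in total. PAD3 (AT3G26830, chr3:9887917-9889791, plus strand), which completes camalexin, had 3 to 23 counts a library, 0.156 to 0.791 CPM. Its cool and warm libraries overlapped in every genotype. Over all genotypes its warmth change was -0.37 (SE 0.36, adjusted p = 0.377). MYB122, with 265 counts in all against the 159 of PAD3, was called in the same comparison.

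At 22 °C, edgeR called 0 of the 9 genes between brl3-2 and Col-0 (2.24% of the table called, 0 of the 9 at an unadjusted p below 0.05, and 0 by DESeq2). The same count of 0 held for pSUC2-BRL3 against Col-0 (10.6% called, 3 at an unadjusted p below 0.05, 1 by DESeq2). There were 3 calls there without the first or the second pair. At 28 °C pSUC2-BRL3 also gave 0 against Col-0 (0.858% called, 1 unadjusted, 0 by DESeq2), and 2 without the second pair. Between pSUC2-BRL3 and brl3-2 at 22 °C 0 were called (0.307% called, 3 unadjusted, 0 by DESeq2). The comparisons with Col-0 share its libraries and are not independent of each other. The differences in warmth response gave 0 of 9 for brl3-2 (0.878% called, 2 unadjusted, 0 by DESeq2) and 0 for pSUC2-BRL3 (1.95% called, 2 unadjusted, 0 by DESeq2). Without the first pair these were 3 and 1, and without the second 3 and 2.

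Immune and wound response markers were read beside these genes. Between brl3-2 and Col-0 at 28 °C 1 of 8 tested markers was called, against 3.62% of all tested genes. The called marker was the immune factor WRKY53, higher by 4.37 (SE 0.93, adjusted p = 0.0273), a call lost in 6 of the 16 refits with 1 library left out. It was at 94.2 and 112 CPM in warm brl3-2 and at no more than 26.6 CPM elsewhere. WRKY40, a factor quickly induced by wounding and microbes, did not pass (log2 3.64, SE 1.45, adjusted p = 0.221), nor did FRK1, NHL10, VSP2, LOX2, JAZ10 or PR1. WRKY40 was at 249 and 328 CPM in warm brl3-2, 226 and 183 CPM in cool brl3-2, 96.6 and 12.6 CPM in cool Col-0 and 42.2 and 191 CPM in cool BRL3ox. In the other 6 warm libraries it was at 6.00 to 46.1 CPM.

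The summed level of all 9 markers was 364 and 503 CPM in warm brl3-2, of which WRKY40 and WRKY53 made up most, against 22.7 to 107 CPM in the other 6 warm libraries. It was 278 and 250 CPM in cool brl3-2, 63.6 and 218 CPM in cool BRL3ox, 151 and 60.9 CPM in cool Col-0 and 25.9 and 57.5 CPM in cool pSUC2-BRL3. PDF1.2A was at 0 in all warm libraries. With warmth, averaged over genotypes, 4 of the 8 tested markers rose and 2 fell, where 35.9% of all tested genes rose and 33.5% fell. FRK1 rose by 5.95, NHL10 by 3.27, VSP2 by 2.93 and WRKY53 by 1.42, and LOX2 at -2.38 and PR1 at -1.63 fell. WRKY33, the known activator of PAD3, was at 535 and 819 CPM in warm brl3-2 and at 9.90 to 285 CPM elsewhere, and was picked out after its values were seen.

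MYB51 and WRKY40 followed each other in some libraries and not in others. In every genotype at 28 °C, MYB51, WRKY40, WRKY53 and WRKY33 were all higher in replicate 2 than in replicate 1. WRKY53 was highest in the same libraries as MYB51, both of warm brl3-2 and then replicate 2 of warm BRL3ox (26.6 CPM). MYB51 and WRKY40 were both highest in warm brl3-2, and cool brl3-2 had WRKY40 at 183 CPM or more with MYB51 at 20.8 and 24.0 CPM. Replicate 2 of warm BRL3ox had the next highest MYB51, 57.1 CPM, with WRKY40 at 46.1 CPM, and replicate 1 of warm pSUC2-BRL3 had CYP81F2 at 20.9 CPM with WRKY40 at 6.00 CPM. Replicate 2 of cool BRL3ox, with WRKY40 at 191 CPM, had MYB51 at 28.2 CPM, near the 27.3 and 27.9 CPM of warm Col-0 and warm pSUC2-BRL3 replicate 2. The part of these markers in the results, the warmth rises included, was not tested.

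**Figure D4:**
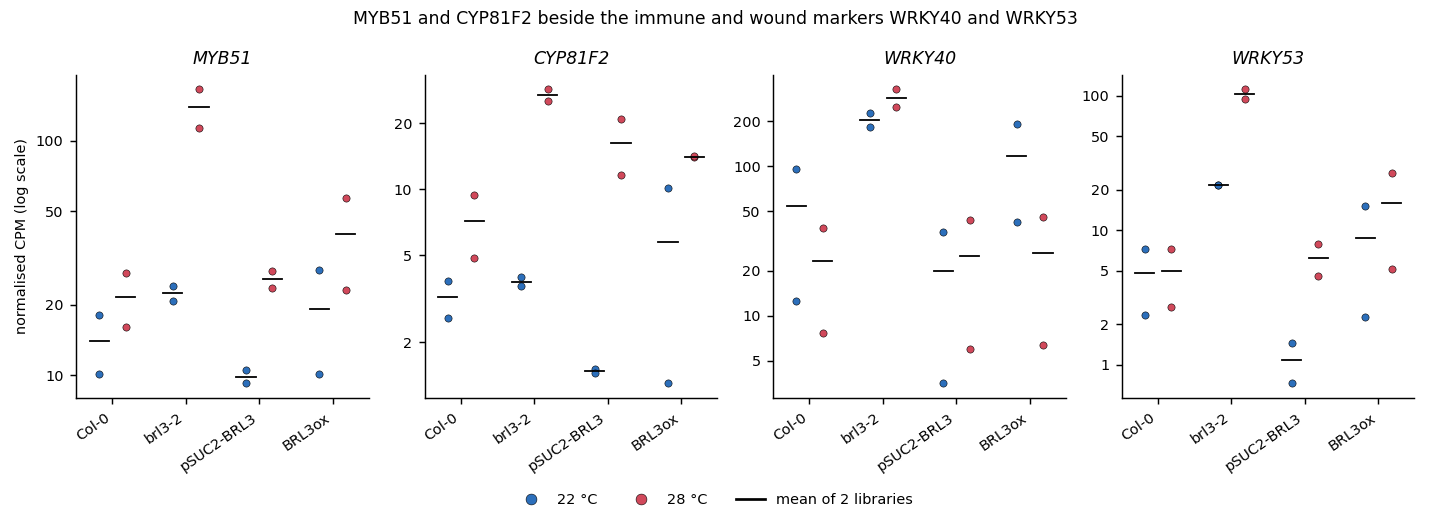
Normalised CPM (y axis, log scale) of MYB51, CYP81F2, WRKY40 and WRKY53 in each library, by genotype and temperature, with the mean of the 2 libraries as a bar. All 4 genes peak in warm brl3-2, and WRKY40 is also high in cool brl3-2 and in 1 cool BRL3ox library.

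Markers of the tissues at either end of the hypocotyl were also read. The 9 root markers summed to 13.9 to 41.8 CPM at 22 °C and 32.6 to 55.3 CPM at 28 °C, with IRT1, the root iron transporter, at 0 in all 8 warm libraries and at 0.629 to 7.97 CPM in the cool. Of 4 root markers tested, 1 rose and 2 fell with warmth, where 35.9% of all tested genes rose and 33.5% fell. CASP1, an endodermis gene, was at 3.58 to 7.98 CPM in the cool and at 17.9 to 36.3 CPM in the warm. The 7 shoot apex and stomatal markers summed to 44.9 to 70.1 CPM at 22 °C and 79.1 to 102 CPM at 28 °C. Of 5 tested, 2 rose and 2 fell with warmth, near the same shares of all tested genes. KNAT1, a meristem gene, was at 17.7 to 44.5 CPM in the cool and at 54.4 to 80.8 CPM in the warm (log2 change 1.00). The stomatal factors SPCH and MUTE had log2 changes of -0.90 and -2.03. Their part in the warmth results was not tested.

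The wider pathway was read from lists of other genes, chosen with earlier results of these data known, and the counts are for the warmth change averaged over genotypes. In that comparison 35.9% of all tested genes rose and 33.5% fell. Of 8 tryptophan synthesis genes 3 rose and 3 fell (median 0.11), with PAT1, an early enzyme of the route, at -0.77, ASB1 at -0.55 and TSB1 at 0.41. Of 6 core enzymes that act after CYP83B1, 3 rose and 1 fell (median 0.09). The fall, UGT74B1 at -0.30 (adjusted p = 0.0272), was lost in 8 of the 16 refits with 1 library left out (-0.37 to -0.24). The rises were SOT16, the sulfotransferase of the last core step, at 0.63, and the glutathione transferases GSTF10 and GSTF9, each at 0.33. The GSTF9 call was lost without replicate 2 of brl3-2 at 28 °C (0.26).

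Later steps modify, move and break down the finished product. All 6 tested genes of indole ring modification rose (median 1.45), among them the methyltransferases IGMT1 at 2.65 (SE 0.18, adjusted p = 2.72e-07), IGMT5 at 2.04 and IGMT2 at 1.74, and 2 of the 8 listed were not tested. Within genotypes, 4 of these 6 rose in Col-0, 4 in brl3-2, 6 in pSUC2-BRL3 and 3 in BRL3ox. Of all tested genes, 21.7%, 25.8%, 19.6% and 18.3% rose in the same order of genotypes. Of 5 transport and breakdown genes 4 rose (median 0.86), with the exporter PEN3 at 2.06, the transporter GTR3 at 0.94 and the myrosinase PEN2 at 0.86. All 4 tested genes of camalexin and other indole defence products rose (median 2.80), with CYP82C2 at 4.03 (SE 0.62, adjusted p = 0.000128), FOX1 at 3.88 and GSTF6 at 1.72. CYP82C2 was at 0 to 0.113 CPM in the cool and at 0.0698 to 1.81 CPM in the warm, so the size of its fitted change rests on few counts. CYP82C2 and FOX1 act with CYP71A12 in making cyanogenic indole compounds rather than camalexin. All tested genes had a median of 0.03 in this comparison and 35.9% rose.

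On the list of regulators and partners, MYC2 was at 0 CPM in all 16 libraries and was not tested. Among 6 tested regulators and partners 3 rose (median 0.48), the camalexin regulator NAC042 at 2.62, and the jasmonate factors MYC4 at 1.2 and MYC3 at 0.36. Without the first pair 4 rose and 1 fell, and without the second 3 and 1. Of 4 genes of the nitrilase route to auxin 1 rose, the amidase AMI1 at 0.38 (adjusted p = 0.0472), a call lost in 14 of the 16 refits with 1 library left out (0.25 to 0.59). Under total-count scaling tryptophan synthesis had 6 rises and 1 fall and the core enzymes 5 and 0. Ring modification and camalexin and other products had 6 and 4 rises as before. That scaling shifted the median of all tested genes upward and made most warmth calls of the whole table rises, so these counts are not particular to the lists.

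**Figure D5:**
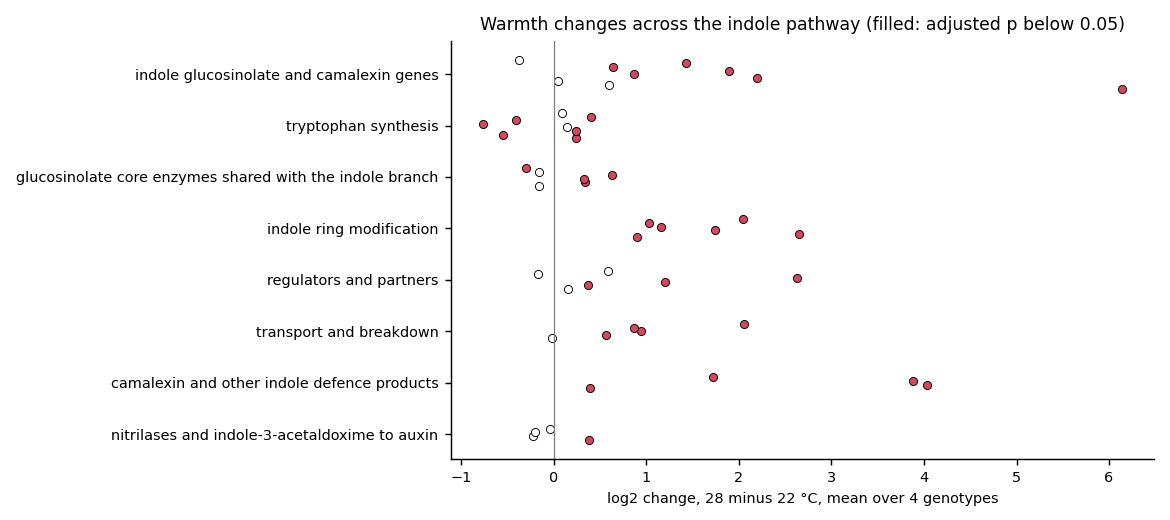
Fitted log2 change from 22 °C to 28 °C averaged over 4 genotypes (x axis) for each tested gene, by list (y axis); filled points passed an adjusted p of 0.05, and the vertical offset within a list only separates points. The lists of ring modification and of camalexin and other products lie wholly right of 0, and those of tryptophan synthesis and core enzymes lie on both sides.

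At 28 °C genes of several lists were called higher in brl3-2 than in Col-0, where 3.62% of all tested genes were called. They were 2 of 6 tested genes of ring modification, 2 of 5 of transport and breakdown, 1 of 6 of the core and 1 of 8 of tryptophan synthesis. No gene of the other pathway lists was called. PEN3 was higher than in Col-0 by 2.17 (SE 0.29, adjusted p = 0.00386) and PEN2 by 1.69 (SE 0.23, adjusted p = 0.00386), both lost when Col-0 replicate 1 or brl3-2 replicate 2 at 28 °C was left out (PEN3 1.92 to 2.36 and PEN2 1.53 to 1.81 over all refits). IGMT3 differed by 1.80 (adjusted p = 0.0316), lost in 5 of those refits (1.38 to 2.39). IGMT2 differed by 1.66 and was lost in 10 of the 16 refits with 1 library left out (1.34 to 2.04). SOT16 differed by 0.81 and ASB1 by 1.12, each lost in 3 refits (0.53 to 1.04 and 0.77 to 1.39), those without either Col-0 library or replicate 2 of brl3-2 at 28 °C. WRKY53 was called higher in the same comparison, and its part was not tested.

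In BRL3ox at 22 °C 5 of 6 core enzymes were lower than in Col-0 and 0 higher (median -1.07, that of all genes -0.045), against 14.7% of the table lower. Without the first or the second pair 4 were lower. SUR1, the C-S lyase of the core, was at -1.56 (SE 0.21, adjusted p = 0.00218) and held with any 1 library left out (-1.86 to -1.31). GSTF9 was at -1.07 (SE 0.21, adjusted p = 0.00707) and SOT16 at -0.89 (SE 0.17, adjusted p = 0.00597), both lost without replicate 1 of Col-0 at 22 °C (GSTF9 -1.13 to -0.99 and SOT16 -1.04 to -0.75 over all refits). Of 8 tryptophan genes 4 were lower, and 2 without the first or the second pair. In the same comparison ring modification had 2 rises of 6, with IGMT1 at 1.76 (adjusted p = 0.00967), lost without replicate 1 of Col-0 or replicate 2 of BRL3ox (1.11 to 2.22 over all refits). MYC4 was at -1.19 (adjusted p = 0.0102), lost without replicate 1 of Col-0 (-1.72 to -0.81 over all refits). The lower core level was not particular to BRL3ox. In pSUC2-BRL3 at 22 °C 4 of the 6 core enzymes and 3 of the 8 tryptophan genes were lower than in Col-0. The core median there was -0.73, and 10.6% of all tested genes were called in either direction. In cool brl3-2 0 genes of either list were called against Col-0 (core median -0.19), with 2.24% of the table called.

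The genes whose log2 CPM followed each member most closely over the 16 libraries are given as a description, since libraries share temperature, genotype and scaling. MYB51 went with PUB24, a ubiquitin ligase of immune signalling (AT3G11840, r = 0.974), and PUP7 (AT4G18197, r = 0.963). CYP81F2 went with AT1G70420 (r = 0.965) and AT5G46520 (r = 0.960). CYP83B1 went with MLH3, a DNA mismatch repair gene (r = 0.954), and AT4G13990 (r = 0.941). CYP79B2 went with AT1G77520 (r = 0.943) and AT4G13990 (r = 0.921), so CYP83B1 and CYP79B2 share a neighbour. MYB34 went with AT3G57010 (r = 0.911) and XRCC3 (r = 0.910), and CYP79B3 with PRF3 (r = 0.804) and ECT9 (r = 0.794), the weakest match of the 6.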

How the data were processed

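The deposited table holds raw read counts per gene, whole numbers for 16 libraries. Per the submitters' processing notes, reads went through FastQC 0.11.2, Trimmomatic 0.38, HISAT2 2.1 with TAIR10 and featureCounts 1.6.2, and edgeR 3.34.1 was used. RNA went into stranded libraries, per the labels' protocols, while the strand setting of the counting is not given in the sources used here. Left out was 1 line without a gene name (0.00271% of counts).

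The test was edgeR 4.0.16 in R 4.3.3 (quasi-likelihood F-test, two-sided, Benjamini-Hochberg over all tested genes), in 1 fit of 16 libraries with 8 group coefficients, TMM scaling and a filter of 10 counts in the smallest group size and 15 in total. Calls are at an adjusted p below 0.05. Tested on simulated data for the Col-0 warmth comparison (20505 genes), 35% of 2-fold and 90% of 4-fold changes were recovered. Only 100 genes were changed at each size, none of them rare, while the real comparison called 21.7% of genes higher and 23.3% lower. The rates therefore need not hold for the real comparison or for rare genes. RPKM uses exon lengths of RefSeq TAIR10.1, which matched 33011 of 33296 loci. Ratios on 3 or fewer counts have 95% exact counting intervals. Alternatives were DESeq2 1.42.0, its size factors, no filter, a replicate block, leaving out each library or either of 2 pairs, and total-count scaling. The pairs were built around libraries that stood apart in these data, and total-count scaling was chosen after seeing the data.

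The 10 genes and all lists were chosen with earlier results of these data known. Named were the 10 genes, BRL3, and from each list up to 3 genes called in the mean warmth change with the largest change; likeness names 2 genes for each member with a mean of at least 5 CPM. The uncalled changes printed, WRKY33 and the list genes named in genotype comparisons were chosen after their values were seen.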

Additional observations from a re-analysis of the deposited data

Results flagged for a closer look

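The warmth response of CYP83B1 differed between BRL3ox and Col-0 by 1.75 on the log2 scale (edgeR interaction, SE 0.41, adjusted p = 0.0491), which marks it for a closer look as an effect that differs between genotypes. CYP83B1 was at 27.9 and 14.0 CPM in BRL3ox at 22 °C and at 64.9 and 71.1 CPM at 28 °C, while Col-0 had 56.0 to 66.2 CPM at both temperatures. The call was lost in 15 of the 16 refits with 1 library left out, and without replicate 2 of BRL3ox at 22 °C, which stood apart on the second principal component, the difference was 1.33 (adjusted p = 0.0504). Its cause was not tested.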

How the results depend on the processing

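With n = 2, small changes could be missed, and many calls lay near the threshold. PAD3, MYB122, CYP71A13 and PR1 had few counts, as did CYP71A12, FRK1, NHL10 and CYP82C2 in the cool libraries. Counts are of called genes among the 9 tested. DESeq2 gave 1 in place of 2 for warmth in Col-0, 1 in place of 0 for pSUC2-BRL3 against Col-0 at 22 °C, 3 in place of 1 for brl3-2 against Col-0 at 28 °C and 3 in place of 1 for pSUC2-BRL3 against brl3-2 at 28 °C. Total-count scaling gave 5 for warmth in Col-0, 8 in brl3-2 and 8 in BRL3ox, and 0 in place of 1 for the BRL3ox difference in warmth response. It moved the median log2 change of all genes with warmth to between 0.55 and 0.66 and the share of higher calls to between 81.6% and 90.8%. CYP83B1 in Col-0 turned from -0.049 to 0.48 under it, and ran from -0.17 to 0.072 with 1 library left out.

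Without the first pair of libraries (cool BRL3ox replicate 2 with warm pSUC2-BRL3 replicate 1), counts were 4 for warmth in BRL3ox (reported 2), 3 for pSUC2-BRL3 against Col-0 at 22 °C (0), 1 for BRL3ox against Col-0 at 22 °C (2), 3 for brl3-2 against Col-0 at 28 °C (1), 2 for BRL3ox against Col-0 at 28 °C (0), and 1 and 3 for pSUC2-BRL3 against brl3-2 at 22 °C and 28 °C (0 and 1). The differences in warmth response gave 3, 1 and 2 for brl3-2, pSUC2-BRL3 and BRL3ox (0, 0 and 1). Without the second pair (replicate 2 of pSUC2-BRL3 in place of replicate 1) the counts were the same except for 2 in pSUC2-BRL3 against Col-0 at 28 °C (0), 4 in pSUC2-BRL3 against brl3-2 at 28 °C and 2 for the pSUC2-BRL3 difference in warmth response. The causes were not tested.

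With 1 library left out at a time, counts ran from 0 to 3 for warmth in Col-0, 3 to 5 in brl3-2, 2 to 7 in pSUC2-BRL3, 2 to 4 in BRL3ox and 6 to 7 for the mean. They ran from 0 to 0 for brl3-2, 0 to 2 for pSUC2-BRL3 and 1 to 4 for BRL3ox against Col-0 at 22 °C, and from 0 to 3, 0 to 0 and 0 to 1 at 28 °C. For pSUC2-BRL3 against brl3-2 they were 0 to 0 at 22 °C and 0 to 3 at 28 °C, and for the differences in warmth response 0 to 1, 0 to 1 and 0 to 2.

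Over 28 pairs of groups the correlation of deviations between same-numbered replicates ran from -0.294 to 0.267 (median -0.00113), 8 of them above 0.1. The labels do not say whether same-numbered libraries shared plates or harvests. At 28 °C replicate 2 was above replicate 1 in all 4 genotypes for MYB51, MYB34 and CYP79B2, and in some genotypes only for the other members. The summed immune and wound markers at 28 °C were also higher in replicate 2 in every genotype. The replicate block gave 0 in place of 1 for the BRL3ox difference in warmth response (CYP83B1 1.74, adjusted p = 0.0714) and left every other count of called members within 1.5 times the reported one.

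Over the whole table DESeq2 called more than 1.5 times as many genes in 9 of the 16 comparisons (674 to 1777, where 63 to 743 were reported). The replicate block called fewer in 6 (1 to 311, reported 63 to 529). Leaving out the first pair moved 11 counts (720 to 6594, reported 63 to 6197), 10 of them upward, and the second pair moved 11 (1447 to 6567). Total-count scaling moved 3 (214 to 12046, reported 460 to 7713), and no filter 1 (146, reported 63).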
